A study of Mus musculus with 7 samples.

Results

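The extracellular ATP and adenosine pathway was followed through 8 genes chosen by name: Entpd1, Nt5e, Adora1, Adora2a, Adora2b, Ada, Adk and P2rx7. The choice was made with earlier results of these data known. Each gene was found by matching its symbol to the Ensembl gene identifiers of the deposited tables, and all 8 of 8 were present among 32212 genes. A filter on low values, which kept a gene at 0.5 FPKM or more in 3 or more libraries, left 14838 genes for testing, and 7 of the 8 pathway genes passed it. Adora1 did not.

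ATP leaves stressed and dying cells and acts outside them as a danger signal, sensed by P2 receptors such as the channel P2RX7. At the cell surface CD39 (Entpd1) cuts ATP and ADP to AMP, and CD73 (Nt5e) cuts AMP to adenosine, which acts on G-protein coupled receptors that dampen T cells, NK cells and myeloid cells in tumours. Adenosine is removed by deamination to inosine (Ada) or by phosphorylation back to AMP inside the cell (Adk).

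The libraries came from bulk subcutaneous tumours of wild-type C57BL/6J mice that were 6 weeks old when cells of LLC (Lewis lung carcinoma), a lung cancer line that grows in this strain, were placed in the right axilla. The control group (4 libraries) was the untreated tumour model, and the other group (3 libraries) received ZQD (Ze-qi decoction, a herbal medicine) at 42.67 g/kg, the high dose by its label. Mice were assigned to groups after 3 days, with 8 mice in each of 4 groups, of which the labels name only the model and the ZQD group. The protocol puts collection at day 22 after modelling, and the design text at day 21 of treatment. All animals carried tumours, so no normal tissue serves as a reference. The labels call the cells tumour cells, yet the RNA came from whole tumour tissue, in which host cells are included. Whether each library stands for a different mouse is not stated in the labels, and the p-values describe the spread among the libraries alone, which may be technical. Sequencing platforms of both Illumina and MGI are named without being tied to libraries, so the part of the platform in any difference was not tested.

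Levels are given as FPKM, the count of a gene divided by its length and by the library total, which can be compared between genes. Library totals ran from 32065288 to 49914394 reads, so that 1 read in a 1 kb gene was worth 0.0200 to 0.0312 FPKM. Mitochondrially encoded genes took 5.18 to 7.96% of reads in controls and 8.78 to 11.1% in ZQD libraries, and FPKM of all other genes are shares of what is left. The summed FPKM of 14 macrophage and monocyte markers was 869 to 1237 in controls and 1248 to 1574 in ZQD, with the lowest value in control 4. T cell markers summed to 25.9 to 42.3 and 45.1 to 48.0, and NK cell markers to 23.9 to 35.8 and 41.0 to 42.7. The library ZQD 1 stood apart in adipocyte genes, a list chosen after the data were seen: all 10 were highest there, and their summed FPKM was 137.7 against 4.05 to 28.3 in the other libraries. Of the lung epithelial lineage list only Cdh1 passed the filter, and Nkx2-1 was at 0 in 6 of 7 libraries. In bulk tissue, fewer cells of a type and less RNA per cell cannot be told apart.

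Entpd1 was the only pathway gene among the 8 whose ZQD libraries all lay above all controls. Averaged over the 7 libraries, Entpd1 stood highest at 8.96 ± 2.42 FPKM (SD, n = 7), followed by P2rx7 at 7.61 ± 1.54 and Ada at 6.88 ± 0.48. These 3 did not separate beyond their spread: Entpd1 exceeded P2rx7 in 4 of 7 libraries, and P2rx7 exceeded Ada in 5 of 7. Nt5e came next at 4.08 ± 1.32 FPKM, below Ada in 7 of 7 libraries and with no overlap of their ranges. Adk at 2.56 ± 0.39 FPKM was below Nt5e in 7 of 7 libraries, though the ranges overlapped. The adenosine receptor genes were lowest, with Adora2b at 0.86 ± 0.40, Adora2a at 0.49 ± 0.11 and Adora1 at 0.05 ± 0.08 FPKM.

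**Figure D1:**
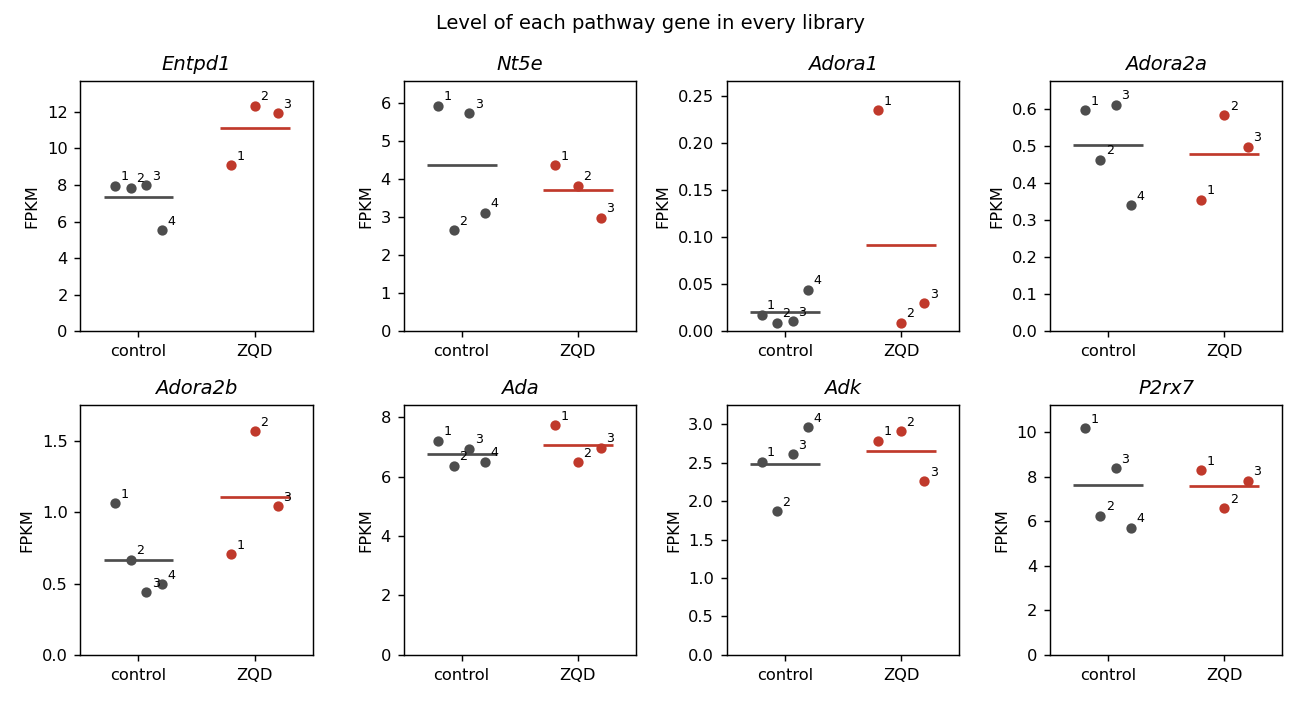
FPKM of each of the 8 pathway genes (vertical axes, linear, each with its own scale from 0) in the 4 control and 3 ZQD libraries. Points are libraries, numbered by replicate, and each horizontal line is the mean of its group. Only the Entpd1 panel has all ZQD points (9.08 to 12.3) above all control points (5.52 to 8.00), and the Adora1 panel shows 1 high point, ZQD 1 at 0.234.

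For Entpd1 (ENSMUSG00000048120, 5580 bp of exon), the ectonucleotidase that starts ATP breakdown, the windows upstream of its annotated start sites are shown first, because its groups did not overlap. They are RefSeq sequences of build GRCm38.p6, plus strand, written 5′ to 3′ and ending at the base before the start. The first start lies at chr19:40612234-40612365, cut at the exon of a neighbouring gene, and the capitals mark a GCGTG. The second lies at chr19:40659520-40659769, and the capitals mark a CGTCA, the reverse strand of TGACG.
Entpd1 start 1: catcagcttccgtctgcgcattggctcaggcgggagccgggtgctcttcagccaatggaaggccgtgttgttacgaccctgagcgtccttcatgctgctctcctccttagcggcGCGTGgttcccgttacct
Entpd1 start 2: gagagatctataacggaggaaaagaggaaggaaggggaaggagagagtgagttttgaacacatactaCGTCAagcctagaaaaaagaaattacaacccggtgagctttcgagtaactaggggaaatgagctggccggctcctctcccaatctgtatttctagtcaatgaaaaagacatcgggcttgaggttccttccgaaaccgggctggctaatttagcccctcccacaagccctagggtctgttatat
Motifs were searched on both strands as ACGTG or GCGTG (the core of the hypoxia response element), GGGCGG (the GC box) and TGACG (the short form of the cAMP response element). Among all 32851 RefSeq windows cut to the same length, 26.5% hold the hypoxia core (132 bases, as for start 1) and 17.8% hold TGACG (250 bases, as for start 2). The windows differ in composition, with 61.4% and 47.2% G or C. A match describes these letters only, and a count per gene cannot say which start was used.

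Entpd1 measured 7.95, 7.86, 8.00 and 5.52 FPKM in controls 1 to 4 and 9.08, 12.3 and 11.9 FPKM in ZQD 1 to 3. The groups did not overlap, and control 4 lay well below the other controls. Each value rests on 1214 to 2662 reads. The means were 7.33 ± 1.21 (SD, n = 4) and 11.1 ± 1.78 FPKM (SD, n = 3), a ratio of 1.52. On log2(FPKM + 0.5), the scale of all fold changes below, the difference was 0.57 (SE 0.158, 95% interval 0.21 to 0.93). It did not pass in the limma fit over all genes, where the Benjamini-Hochberg adjusted p was 0.186. A 2-sided exact permutation test of the FPKM over the libraries gave p = 0.0286, the smallest that 4 against 3 allows. This p restates the lack of overlap, which 5.35% of tested genes showed upward and 9.84% downward. Of the members, only Entpd1 and Adora1 were given this test.

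The background for these calls was as follows. limma called 0 of 14838 genes (0%) at an adjusted p under 0.05, with 2306 genes at an unadjusted p under 0.05 and a smallest adjusted p of 0.0780. Higher in ZQD at an unadjusted p under 0.05 were 773 genes (5.21%), and 1 of the 7 tested members, Entpd1, was among them. Lower at that level were 1533 genes (10.3%), with 0 members among them. This split moved with the scaling, to 377 higher and 2861 lower on the TPM scale and to 1142 and 1046 when mitochondrially encoded genes were left out. All ZQD libraries lay above all controls in 794 genes (5.35%) and below in 1460 genes (9.84%); of the members, 1 was above and 0 below. For Entpd1 itself, 3.26% of tested genes had a smaller p and 4.57% a larger fold change in size.

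The call depended on the tool. On reads rebuilt from the FPKM, DESeq2 gave Entpd1 a log2 fold change of 0.65 and an adjusted p of 0.00995, and edgeR's quasi-likelihood test an adjusted p of 0.150. DESeq2 called 288 of 12525 genes with an adjusted p (2.3%) as higher in ZQD, while edgeR called 0 in either direction, with 2221 at an unadjusted p under 0.05. Entpd1 was the 1 member that DESeq2 called, of 5 to which it gave an adjusted p. Over all alternatives its adjusted p ran from 0.00995 to 0.376. Without control 4 the limma fold change was 0.45. Leaving out the lowest control cannot make the groups overlap, so that fit is no check of the overlap.

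CD39 is carried by macrophages, regulatory T cells and endothelium, so the markers of these cells stand beside it. The macrophage and monocyte markers had a median log2 fold change of 0.41 against -0.04 over all tested genes. Of these 14 markers, 5 lay above all controls, beside 5.35% of all tested genes. Entpd1 per 1000 FPKM of summed macrophage markers was 7.26, 6.57, 6.46 and 6.36 in controls and 7.28, 7.84 and 7.80 in ZQD. The groups did not overlap in this ratio either, though control 1 and ZQD 1 nearly met. Means were 6.66 ± 0.41 (SD, n = 4) and 7.64 ± 0.31 (SD, n = 3). Regulatory T cell markers summed to 11.6 to 14.6 FPKM in controls and 11.1 to 15.2 in ZQD, and endothelial markers to 19.1 to 33.0 and 20.5 to 40.0. Both lists overlapped between the groups, and the ratios of Entpd1 to the T cell and NK cell sums overlapped too. The part of any of these cells in the Entpd1 difference was not tested.

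**Figure D2:**
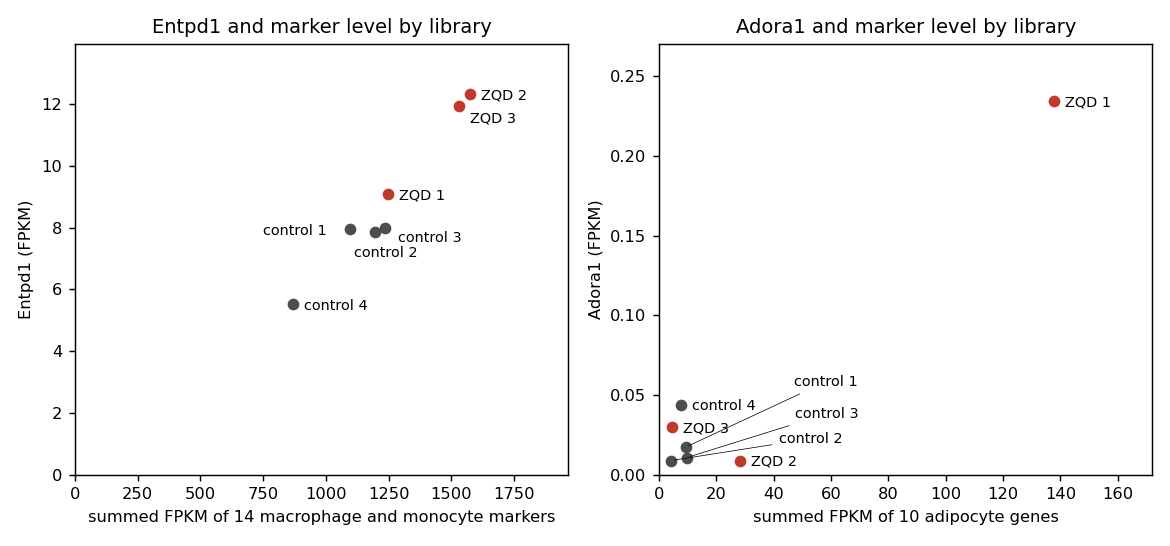
Entpd1 against the summed FPKM of the macrophage and monocyte markers, and Adora1 against that of the adipocyte list, with 1 point per library (controls grey, ZQD red) and linear axes. In the Entpd1 panel control 4 is lowest on both axes (5.52 and 869 FPKM), and in the Adora1 panel ZQD 1 lies apart on both (0.234 and 137.7 FPKM).

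The gene most like Entpd1 over the 7 libraries was Fcgr3, an Fc receptor of myeloid and NK cells, with a Pearson r of 0.99 on log2(FPKM + 0.5). Rtf1 (0.98), a transcription elongation factor, and Igsf6 (0.97) followed. These are the highest of 11119 genes searched, and all points share the same libraries and group difference.

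Nt5e (ENSMUSG00000032420, 8602 bp), the enzyme that makes adenosine from AMP, measured 5.93, 2.66, 5.73 and 3.11 FPKM in controls 1 to 4 and 4.36, 3.82 and 2.99 in ZQD 1 to 3. All 3 ZQD values lay within the range of the controls, which fell into a higher and a lower pair. The means of 4.36 ± 1.71 (SD, n = 4) and 3.72 ± 0.691 FPKM (SD, n = 3) differed by less than this spread (log2 fold change -0.14, SE 0.269, 95% interval -0.76 to 0.47, limma adjusted p = 0.831). The ratio of Entpd1 to Nt5e was 1.34, 2.96, 1.40 and 1.77 in controls and 2.08, 3.23 and 4.00 in ZQD, with overlap through control 2. Over the libraries the closest genes to Nt5e were Il6ra (r = 0.98), a receptor chain for interleukin 6, Cradd (0.97), a death domain adaptor, and Evi5l (0.97).

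Adora2b (ENSMUSG00000018500, 1845 bp) encodes the adenosine receptor of low affinity. Its upstream window, chr11:62248734-62248983 on the plus strand of GRCm38.p6 (RefSeq), is shown because its ratio of group means was the highest of the tested members, and the capitals mark the GC boxes and 1 hypoxia core.
Adora2b: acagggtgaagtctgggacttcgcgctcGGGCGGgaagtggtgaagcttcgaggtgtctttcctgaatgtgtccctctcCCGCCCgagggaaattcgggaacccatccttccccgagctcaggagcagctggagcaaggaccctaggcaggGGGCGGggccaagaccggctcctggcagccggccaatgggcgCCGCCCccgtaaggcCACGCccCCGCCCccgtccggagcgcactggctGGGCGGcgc
It holds 6 GC boxes and 1 CACGC, the reverse strand of GCGTG, in 69.6% G or C. Of all windows of 250 bases, not matched for G or C, 32.7% hold at least 1 GC box and 38.6% the hypoxia core. Windows of Adora1 and Adk, not shown, hold the hypoxia core too, while the kept windows of Ada and P2rx7 do not.

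Adora2b measured 1.06, 0.669, 0.439 and 0.495 FPKM in controls 1 to 4 and 0.706, 1.57 and 1.04 in ZQD 1 to 3. The groups overlapped, since control 1 lay above 2 of the ZQD libraries, and the values rest on 26 to 112 reads. The means were 0.667 ± 0.282 (SD, n = 4) and 1.11 ± 0.435 FPKM (SD, n = 3), a ratio of 1.66. The log2 fold change of 0.46 (SE 0.243, 95% interval -0.10 to 1.01) did not pass in limma (adjusted p = 0.403). It is reduced by the pseudocount at this low level: edgeR gave 0.77 with an adjusted p of 0.370. Without ZQD 2 the limma value was 0.25. Its closest genes were S100a8 (r = 0.97), a calcium-binding protein of neutrophils, Cdkn1a (0.94), a cell cycle inhibitor, and Dppa3-ps (0.93). Summed neutrophil markers, which include S100a8, were 31.1 to 69.8 FPKM in controls and 49.7 to 117.5 in ZQD, highest in ZQD 2 as was Adora2b. The part of these cells in the Adora2b values was not tested.

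Adora2a (ENSMUSG00000020178, 3062 bp), the high-affinity receptor through which adenosine raises cAMP in T cells, measured 0.595, 0.462, 0.611 and 0.340 FPKM in controls 1 to 4 and 0.354, 0.583 and 0.498 in ZQD 1 to 3. The groups overlapped almost fully. With 40 to 91 reads per library the log2 fold change was -0.03 (SE 0.179, 95% interval -0.44 to 0.38, limma adjusted p = 0.947). The ratio of Adora2b to Adora2a was 1.79, 1.45, 0.72 and 1.46 in controls and 1.99, 2.69 and 2.10 in ZQD. The groups did not overlap in this ratio, which was formed after the data were seen and rests on few reads. Mef2d (r = 0.97), Mxi1 (0.93) and Rrm2b (0.92) were the closest genes to Adora2a.

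Adora1 (ENSMUSG00000042429, 5785 bp), the receptor that lowers cAMP, was near the limit of detection. It had 5, 2, 2 and 10 reads in controls and 50, 2 and 6 in ZQD, or 0.0173, 0.0089, 0.0108 and 0.0439 FPKM and 0.234, 0.0089 and 0.0298 FPKM. Only ZQD 1 was high, with an exact Poisson 95% interval of 0.174 to 0.309 FPKM that covers counting error only. The group means of 0.0202 ± 0.0162 (SD, n = 4) and 0.0911 ± 0.125 FPKM (SD, n = 3) were not separated by a 2-sided exact permutation test (p = 0.257). ZQD 1 is also the library whose adipocyte genes were highest, with Adipoq at 10.1 FPKM there and 0 to 1.48 elsewhere, and the part of fat tissue in this value was not tested. By the GENCODE annotation 20.1% of the exon bases of Adora1 overlap Mybph on the opposite strand, and counting by strand is not stated. Mybph was at 0.0233 FPKM in ZQD 1 and highest in control 1 at 0.490.

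Ada (ENSMUSG00000017697, 2002 bp), adenosine deaminase, was the steadiest of the 8 genes. It measured 7.21, 6.36, 6.93 and 6.49 FPKM in controls 1 to 4 and 7.72, 6.48 and 6.97 in ZQD 1 to 3, with overlapping groups. The coefficient of variation was 5.79% in controls and 8.85% in ZQD. Its log2 fold change was 0.06 (SE 0.0931) with the narrowest interval of the members, -0.15 to 0.27 (limma adjusted p = 0.797). Card6 (r = 0.99), Ctns (0.98), the lysosomal cystine transporter, and Nck1 (0.98), a signalling adaptor, varied most like it.

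Adk (ENSMUSG00000039197, 8526 bp), adenosine kinase, measured 2.51, 1.87, 2.61 and 2.96 FPKM in controls 1 to 4 and 2.79, 2.91 and 2.26 in ZQD 1 to 3. The ZQD libraries lay inside the control range. The log2 fold change was 0.08 (SE 0.151, 95% interval -0.26 to 0.43, limma adjusted p = 0.822). The ratio of Ada to Adk, the enzymes of the 2 routes of adenosine removal, averaged 2.78 ± 0.50 for the controls (SD, n = 4) and 2.70 ± 0.43 with ZQD (SD, n = 3). Ube2e2 (r = 0.98), a ubiquitin-conjugating enzyme, AC132320.1 (0.98) and Gch1 (0.97), which starts tetrahydrobiopterin synthesis, were closest to Adk.

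P2rx7 (ENSMUSG00000029468, 5970 bp), the ATP-gated channel that triggers the inflammasome in myeloid cells, measured 10.2, 6.25, 8.38 and 5.72 FPKM in controls 1 to 4 and 8.30, 6.60 and 7.82 in ZQD 1 to 3. The controls spanned the ZQD values on both sides. The means were 7.64 ± 2.05 (SD, n = 4) and 7.57 ± 0.879 FPKM (SD, n = 3), with a log2 fold change of 0.02 (SE 0.189, 95% interval -0.41 to 0.45, limma adjusted p = 0.977). C57BL/6 mice carry a P2rx7 allele whose receptor responds less to ATP. The ratio of P2rx7 to Entpd1, the sensor against the enzyme that removes its ligand, was 1.28, 0.79, 1.05 and 1.04 in controls and 0.91, 0.53 and 0.65 in ZQD. ZQD 1 overlapped control 2 in this ratio. Klhl18 (r = 0.98), Adcy6 (0.97), an adenylate cyclase, and Pbxip1 (0.96) were the genes most like P2rx7.

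Among the 7 tested members, the fold changes of 5 were above 0 and those of 2 below, but on the TPM scale Ada, Adk and P2rx7 were below 0 too. Their median was 0.06, beside -0.04 over all tested genes, of which 41.8% were above 0. On the TPM scale the median over all genes was -0.15. Of 21 pairs of members, Nt5e and P2rx7 varied most alike over the 7 libraries (Pearson r = 0.80, exact permutation p = 0.0371, adjusted p = 0.311, Spearman rho = 0.82, permutation p = 0.0341, adjusted p = 0.617). Without the 2 libraries farthest from the median, r was 0.53. No pair passed after adjustment.

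**Figure D3:**
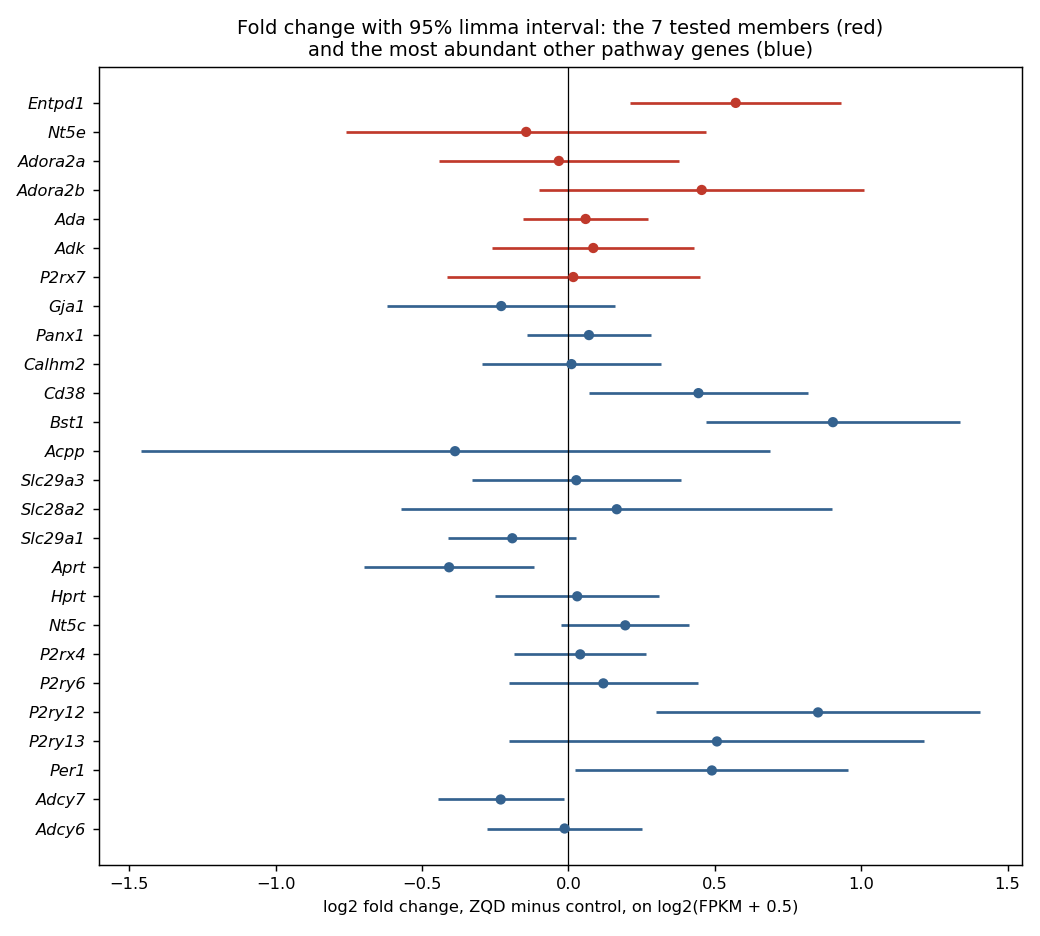
Fold change of ZQD over control on log2(FPKM + 0.5) (horizontal axis) with its 95% limma interval, for the 7 tested members in red and the most abundant other pathway genes in blue. The interval of Entpd1 (0.21 to 0.93) lies above 0, and those of the other 6 members include 0.

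Around the 8 genes, 7 lists held 71 other genes of the pathway, of which 68 were in the tables and 46 passed the filter. limma and edgeR called 0 of these 46, with 8 higher (17.4%) and 4 lower (8.70%) at an unadjusted p under 0.05 in limma, beside 5.21% and 10.3% of all tested genes. DESeq2 called 3, all higher in ZQD: Bst1, P2ry12 and Nt5c2, the last being a cytosolic nucleotidase. Over all genes with an adjusted p, DESeq2 called 288 of 12525 (2.3%) as higher. In 7 of 46 (15.2%) all ZQD libraries lay above all controls, and in 4 (8.70%) below, beside the 5.35% and 9.84% of all tested genes. The median fold change of the 46 was 0.02. The lists were chosen with earlier results of these data known, so their counts here and below are descriptive only.

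The other ectoenzymes that act on nucleotides had 3 tested genes of 9, and 2 of them lay above all controls, beside 5.35% of all tested genes. Bst1, which with Cd38 handles extracellular NAD, was 2.59, 3.20, 3.01 and 2.78 FPKM in controls 1 to 4 and 4.96, 8.50 and 4.67 in ZQD 1 to 3. The lowest ZQD value of Bst1 exceeded the highest control by more than the range of the controls. The log2 fold change was 0.90 (limma adjusted p = 0.154, DESeq2 adjusted p = 0.000325). Cd38 was 16.1, 15.8, 17.1 and 11.4 FPKM in controls 1 to 4 and 20.0, 24.7 and 17.3 in ZQD 1 to 3. For Cd38 control 4 was again the lowest library and ZQD 3 barely cleared control 3 (log2 fold change 0.44, limma adjusted p = 0.263). Acpp, a phosphatase that can also act on AMP, was 1.84 ± 1.19 (SD, n = 4) and 1.12 ± 0.521 FPKM (SD, n = 3), with overlapping groups.

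Of the G-protein coupled receptors listed as P2Y by symbol, most of them sensors of nucleotides, 6 of 8 were tested. Beside 5.35% of all tested genes, 1 of these 6, P2ry12, lay above all controls. This ADP receptor of platelets, microglia and some macrophages was 3.34, 2.05, 4.03 and 1.96 FPKM in controls 1 to 4 and 5.94, 6.23 and 4.09 in ZQD 1 to 3. The gap between ZQD 3 and control 3 was small beside the spread of the controls (log2 fold change 0.85, limma adjusted p = 0.193, DESeq2 adjusted p = 0.0170). P2ry13 was 2.29 ± 0.924 (SD, n = 4) and 3.39 ± 1.09 FPKM (SD, n = 3) and overlapped. P2ry6, the UDP receptor and most abundant of the list, had a log2 fold change of 0.12. Of the other P2X channels only P2rx4 was tested, at 6.52 ± 0.513 (SD, n = 4) and 6.72 ± 0.562 FPKM (SD, n = 3), close to P2rx7 in level. P2rx5 was below the filter, at a mean of 0.268 FPKM in controls and 0.271 in ZQD, as was P2rx3 at 0.105 and 0.0769.

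Channels that let ATP out of cells, listed with the vesicular transporter Slc17a9, had 5 tested genes of 8, none above or below all controls. Gja1 (connexin 43) was far the most abundant of them at 73.2 ± 14.8 (SD, n = 4) and 61.8 ± 8.52 FPKM (SD, n = 3), with a log2 fold change of -0.23 and a limma adjusted p of 0.540. Panx1 was at 3.12 ± 0.122 and 3.30 ± 0.184 FPKM and Calhm2 at 3.15 ± 0.300 and 3.20 ± 0.640 FPKM. Among nucleoside transporters, Slc29a1, which moves adenosine across the plasma membrane, was 4.39, 4.05, 3.92 and 3.93 FPKM in controls 1 to 4 and 3.23, 3.50 and 3.80 in ZQD 1 to 3. All ZQD values of Slc29a1 were lower, by a log2 of -0.19 (limma adjusted p = 0.375). It was the 1 of 4 tested genes of its list below all controls, beside 9.84% of all tested genes. Slc29a3 and Slc28a2 overlapped, with log2 fold changes of 0.03 and 0.17.

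The enzymes of adenosine and inosine metabolism had 13 tested genes of 16, with 2 above and 2 below all controls and a median fold change of -0.01. Over all tested genes, 5.35% lay above and 9.84% below. Aprt, which salvages adenine, was 77.7, 67.0, 63.4 and 90.9 FPKM in controls 1 to 4 and 55.7, 53.2 and 58.3 in ZQD 1 to 3. Its groups did not overlap and the ZQD libraries were the tighter group (log2 fold change -0.41, limma adjusted p = 0.214). Hprt, the salvage enzyme for hypoxanthine and guanine, was at 64.4 ± 5.52 (SD, n = 4) and 66.2 ± 11.1 FPKM (SD, n = 3), and Nt5c overlapped with a log2 fold change of 0.19. Of the cAMP list, which holds enzymes and response genes downstream of the adenosine receptors, 14 of 16 were tested. Here 2 lay above and 1 below all controls, beside the same 5.35% and 9.84%, with a median of 0.00. Per1, a cAMP-responsive clock gene, was 15.8 ± 4.43 and 22.0 ± 3.19 FPKM and overlapped, while the cyclases Adcy7 and Adcy6 had log2 fold changes of -0.23 and -0.01.

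Hypoxia is known to raise Nt5e and Adora2b in many cells, so hypoxia and glycolysis genes were counted too. The list was chosen with earlier results of these data known, so its counts are descriptive only. Of 17, all tested, 16 had a fold change below 0, 5 lay below all controls and 9 were lower at an unadjusted p under 0.05, with a median of -0.51. Over all tested genes, 9.84% lay below all controls and 10.3% were lower at that level. limma called 0 of the list, while DESeq2 called 4, all lower, beside 229 of 12525 genes (1.83%). Their summed FPKM was 1011 to 1529 in controls and 704 to 1028 in ZQD, overlapping by control 1 and ZQD 2. Nt5e and Adora2b had fold changes of -0.14 and 0.46 in the same libraries, neither past the test, and any link to hypoxia was not tested.

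**Figure D4:**
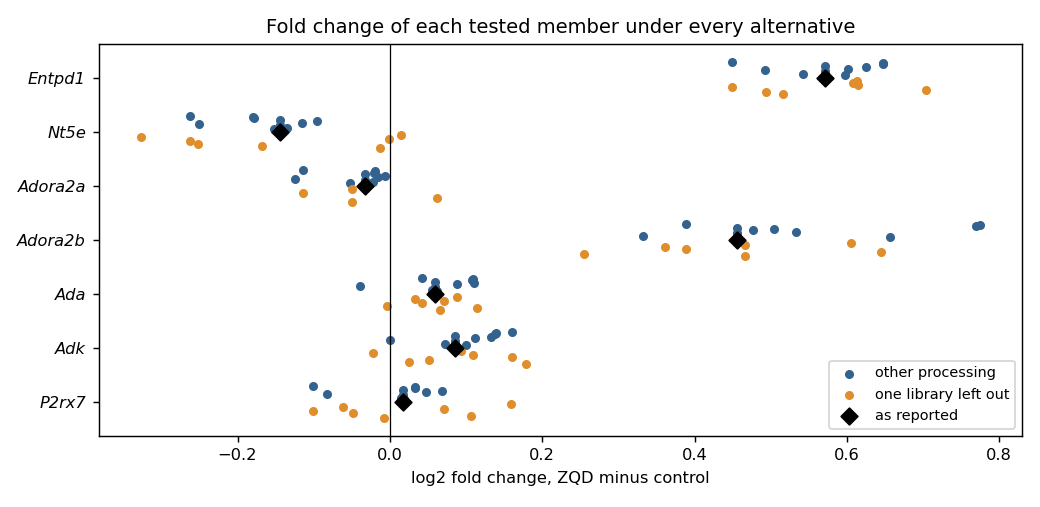
Fold change of ZQD over control, in log2 units, for each tested member as reported (black diamonds), with other processing (blue) and with 1 library left out (orange). Entpd1 stays between 0.45 and 0.70 and Adora2b between 0.25 and 0.78, whereas the values of the other 5 members fall on both sides of 0.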

How the data were processed

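The authors deposited FPKM per gene for all 7 libraries and raw read counts per gene for controls 1 and 2. The labels' protocols name TRIzol extraction, poly(A) RNA and paired-end libraries, and the submitters' processing notes name HISAT2, featureCounts, Subread and DESeq2. The sources used here give no versions, genome build or strand setting. Where a count file exists, FPKM equals the count over length and library total. That gave lengths for 27421 of 32212 genes, and reads rebuilt from FPKM were whole within 0.05 for 100% of values. Symbols matched 31571 identifiers (98.0%).

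limma 3.58.1 (R 4.3.3, with trend) was run on log2(FPKM + 0.5), 2-sided, over 14838 genes, with groups from the sample titles and Benjamini-Hochberg adjusted p under 0.05. The rebuilt reads of 14832 genes went into edgeR 4.0.16 and DESeq2 1.42.0, of which DESeq2 gave no adjusted p for 2307. The main limma, edgeR and DESeq2 fits were also run on simulated reads, with changes larger than those of the tested members. That run cannot decide which tool's calls hold here. Other pseudocounts, filters, scalings, no trend, a replicate block and each library left out were tried. Lengths of 8 of 8 members equal the GENCODE vM21 exon union. Promoters are RefSeq windows of 250 bases before the start, cut to bases outside GENCODE exons; 7 members had a window and 6 kept one after this. Figures used matplotlib 3.10.9.

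The members and lists were chosen with earlier results of these data known, and the adipocyte list after seeing these values. Named genes are the 8 members, the 3 most abundant of each other pathway list and any pathway gene past the threshold. For each tested member, the 3 genes of highest Pearson r were named, among those with a mean FPKM of at least 1. Symbols of Gm and a number, ending in Rik or starting with mt- were left out, while AC132320.1 and Dppa3-ps stayed in.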

Additional observations from a re-analysis of the deposited data

Results flagged for a closer look

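Entpd1 in control 4 was 5.52 FPKM, far below the other controls at 7.86 to 8.00, so that the gap to its neighbour took 0.945 of the range of the 4 controls, past Dixon's 95% limit for 4 values. Among 29 control groups examined (the 8 members and 21 other named pathway genes) this was the only one past the limit, and chance passes about 1 in 20. Control 4 was also the library of lowest summed macrophage and monocyte markers (869 FPKM), and without it the Entpd1 log2 fold change was 0.45 in place of 0.57. The part of those cells in the low value was not tested.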

How the results depend on the processing

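limma called 0 genes and 0 members, with 0 genes also in every fit that left out 1 library. DESeq2 called 517 genes, 288 higher and 229 lower, and 1 member, Entpd1. The replicate block gave 1 gene and 0 members. Entpd1 and Adora2b kept their direction in all 18 alternatives. Leaving out 1 library moved Entpd1 from 0.45 to 0.70 and Adora2b from 0.25 to 0.64. The fold changes of the other members, all near 0, changed sign: Nt5e ran from -0.33 to 0.014 with 1 library left out, Adora2a from -0.11 to 0.062, Ada from -0.0036 to 0.11, Adk from -0.022 to 0.18 and P2rx7 from -0.10 to 0.16. On the TPM scale Ada was -0.039, Adk -0.00017 and P2rx7 -0.082. With the replicate block P2rx7 was -0.10. The replicate numbers 1 to 3 are shared by both groups but did not pair the libraries, since same-numbered deviations correlated at 0.252, 0.0998 and -0.150, and 2 of 6 libraries correlated best with their own number. The block leaves control 4 without a partner. Causes of the changes were not tested. Adora2a had 14 alternatives, since it failed the filter in the others. With 26 to 112 reads per library, Adora2a and Adora2b are limited by depth. Adora1 entered limma only without the filter (log2 fold change 0.16, limma adjusted p = 0.686).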

Other observations

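Of the 46 tested pathway genes outside the 8 members, 7 (15.2%) lay above and 4 (8.70%) below all controls. Over all tested genes the shares were 5.35% and 9.84%. The further genes among these 7 and 4 are given here. No limma value of theirs passed the threshold, so the naming rule does not take them, and they were picked after their values were seen. Dpp4, the surface protein that anchors adenosine deaminase in humans, was 0.566 ± 0.160 FPKM in the controls (SD, n = 4) and 0.932 ± 0.103 FPKM with ZQD (SD, n = 3), a log2 fold change of 0.44 and a limma adjusted p of 0.286. Nt5c2, a cytosolic nucleotidase, was 3.14 ± 0.111 and 3.75 ± 0.084 FPKM (limma adjusted p = 0.286, DESeq2 adjusted p = 0.0498). Adcy4, an adenylate cyclase, was 0.555 ± 0.069 and 0.933 ± 0.328 FPKM (limma adjusted p = 0.314), and Crem, a cAMP-responsive transcription factor, was 1.63 ± 0.194 and 1.96 ± 0.0608 FPKM (limma adjusted p = 0.411). Lower in all ZQD libraries were Ampd2, an AMP deaminase, at 11.1 ± 0.659 and 9.24 ± 0.620 FPKM (limma adjusted p = 0.244), and Sik1, a kinase gene induced by cAMP, at 15.8 ± 1.70 and 11.9 ± 2.28 FPKM (limma adjusted p = 0.251).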
